A study of Mus musculus with 6 samples.

Results

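The growth hormone, STAT5 and IGF axis of the liver was described here through 10 genes, named from knowledge of the pathway by a rule that used no value of these arrays, though earlier results of these data were known when the list was drawn up. They are the growth hormone receptor Ghr, the transcription factors Stat5a and Stat5b, the feedback inhibitors Socs2 and Cish, the repressor Bcl6, the secreted growth factor Igf1, its carrier subunit Igfals, and the binding proteins Igfbp1 and Igfbp2. The 10 genes were among 22911 genes named on the array, and 14 of its 56605 probes carried their symbols. All 10 passed the filter on dim probes, and all 14 probes were well above background on all 6 arrays.

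The livers came from male mice, 3 liver-specific Elovl6 knockouts (LKO) and 3 controls labelled Flox. Elovl6 encodes the enzyme that lengthens palmitate to stearate. Both groups ate the same high-sucrose diet for 14 days and had no food for 4 hours before the livers were taken, so no group on another diet or in the fed state was measured. Total RNA, 0.1 µg per mouse, was labelled with Cy3 and hybridised to single-colour Agilent arrays with 1 mouse per array. The promoter that drove the deletion, the strain and the age of the mice are not given in the sources used here.

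Growth hormone binds its receptor on hepatocytes and activates the kinase JAK2, which phosphorylates STAT5 proteins, and STAT5 then enters the nucleus and switches on genes that include Igf1, Igfals, Socs2 and Cish. In male rodents the pituitary releases the hormone in pulses, and liver STAT5 is activated and switched off with each pulse. CIS, the product of Cish, and SOCS2 damp the receptor's signal. BCL6 binds sites that overlap those of STAT5 and represses genes there, and its own gene is repressed after a growth hormone pulse. Most IGF1 in blood comes from the liver and circulates in a complex that contains the acid-labile subunit encoded by Igfals. Igfbp1 is switched off by insulin through the transcription factor FOXO1 and is high in fasting.

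Promoter windows were looked up because STAT5 and FOXO1 recognise short sequences that can be read directly in the genes they control. RefSeq windows of 300 bases, 250 before and 50 after a transcription start in build GRCm38.p6, were found for 9 of the 10 genes, 16 windows in all. The palindrome TTCNNNGAA, the core that STAT5 binds, was in 8.30% of 32851 mouse windows of this length, and 0.457% held 2 or more copies and 0.0335% held 3 or more. The window of Cish, at chr9:107296409-107296708 on the + strand, held 2 copies, at positions 0 to 8 and 11 to 19 counted from the start at 0. The downstream of the 2 Bcl6 windows, at chr16:23981234-23981533 on the - strand, held 3 copies, at -168 to -160, -122 to -114 and -88 to -80, and the upstream window held 1. Of the 3 Igfals windows, 2 held 1 copy each. No copy was found in the windows of Ghr, Stat5a, Stat5b, Igf1, Igfbp1 and Igfbp2. The letters CAAAACA, searched on both strands as the core of the insulin response element that FOXO1 binds, were in 6.28% of all windows and, among the 10 genes, in the window of Igfbp1, at chr11:7197537-7197836 on the + strand, at -108 to -102. The forkhead core GTAAACA, also searched on both strands, was in 3.65% of all windows and in 1 window of Igfals. The windows with 2 or more STAT5 cores and the window of Igfbp1 are printed because the genes they belong to varied most between mice. They run 5′ to 3′, the first 2 with TTCNNNGAA in capitals and the third with CAAAACA in capitals. A match describes these letters only and says nothing of binding in these livers.
Cish: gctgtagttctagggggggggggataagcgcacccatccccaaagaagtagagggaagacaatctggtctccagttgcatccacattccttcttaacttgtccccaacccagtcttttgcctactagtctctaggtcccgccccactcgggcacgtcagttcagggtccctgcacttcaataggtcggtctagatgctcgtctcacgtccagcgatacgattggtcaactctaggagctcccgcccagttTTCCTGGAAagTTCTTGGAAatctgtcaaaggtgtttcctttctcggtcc
Bcl6: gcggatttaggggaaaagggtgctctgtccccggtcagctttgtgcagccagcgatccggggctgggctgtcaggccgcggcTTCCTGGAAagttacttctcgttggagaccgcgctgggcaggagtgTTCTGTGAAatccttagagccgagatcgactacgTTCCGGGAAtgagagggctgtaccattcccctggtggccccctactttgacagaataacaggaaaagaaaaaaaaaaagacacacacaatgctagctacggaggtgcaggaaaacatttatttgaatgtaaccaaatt
Igfbp1: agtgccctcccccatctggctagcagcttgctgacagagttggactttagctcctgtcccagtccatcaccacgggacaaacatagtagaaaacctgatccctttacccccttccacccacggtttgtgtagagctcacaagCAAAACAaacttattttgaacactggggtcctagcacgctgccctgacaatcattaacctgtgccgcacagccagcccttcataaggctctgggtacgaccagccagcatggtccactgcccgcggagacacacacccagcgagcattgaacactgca

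The deleted gene was checked first. Elovl6 had scaled signals of 64.2, 94.1 and 102 in LKO livers, against 5999, 12090 and 6415 in control livers. Scaled signal is the scanner's processed intensity after every array was set to the same 75th percentile, 281. Elovl6 had a log2 change of -6.51 ± 0.30 (SE), 91.0-fold lower in the knockouts (limma with Benjamini-Hochberg adjustment over 14171 genes, adjusted p = 0.00279), which matches the labels. An exact two-sided permutation test of Elovl6 gave p = 0.1, the smallest that 3 against 3 allows. Across all genes 2 passed an adjusted p of 0.05, which is 0.0141% of those tested, and Usp17la was the other. Each array had 52.1% to 56.6% of its spots well above background and pairs of arrays correlated at 0.987 to 0.993 over all tested genes. The 6 arrays lay on 1 slide, read in 1 scan. Column 1 of the slide held the 3 controls and LKO 1, and column 2 held LKO 2 and LKO 3 only.

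In bulk liver RNA, fewer cells of a type and less RNA per cell cannot be told apart. None of the 10 genes differed between LKO and control livers at an adjusted p of 0.05 (limma). On the brightest probe of each, none reached an unadjusted p of 0.05 either. Of all tested genes, 5.56% did with higher and 5.6% with lower values in LKO livers. Of the 17 alternative settings, an unadjusted p under 0.05 was reached in 5 for Igf1, 3 for Bcl6, 2 for Cish, 2 for Igfals, 1 for Igfbp1 and 1 for Stat5b, and an adjusted p under 0.05 in none (limma). The log2 change was above 0 for 5 and below 0 for 5, with a median of -0.00 beside 0.00 for all genes. In the same fit run over 27950 probes, 0.0215% passed the adjusted threshold and none of the 14 probes of these genes did. What set the genes apart from one another was their spread between mice of 1 genotype: Cish, Igfbp1, Bcl6 and Socs2 each varied more than 99.6% of all genes, while Ghr, Stat5a, Stat5b and Igf1 varied about as much as a typical gene.

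**Figure D1:**
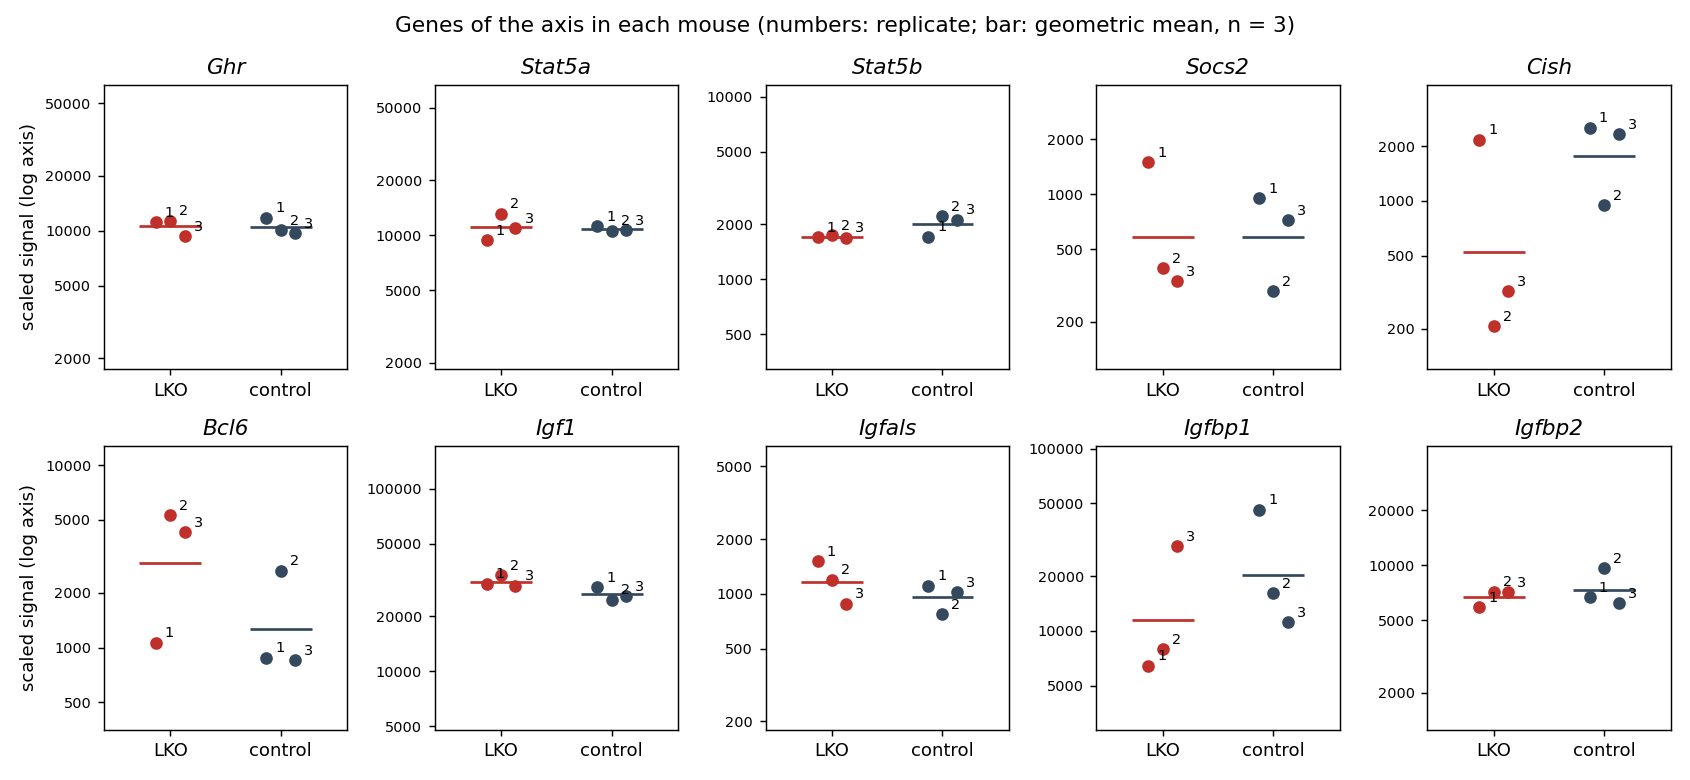
Scaled signal of the 10 genes in each liver, on a log axis, with LKO mice left of control mice, 1 numbered point per mouse and the geometric mean of 3 mice as a bar. Cish, Socs2, Bcl6 and Igfbp1 spread 5.09- to 12.3-fold over the 6 livers, and the LKO points of Igf1 alone lie wholly to one side of the control points.

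The receptor gene did not pass the test on any of its 3 probes. The brightest probe of Ghr read 11091, 11353 and 9328 in LKO livers, against 11771, 10078 and 9700 in control livers. The groups overlapped, and the log2 change was 0.01 ± 0.12 (SE), with a 95% interval of -0.28 to 0.30 (limma, adjusted p = 0.986). Of 2 further Ghr probes, A_51_P499854 gave -0.06 ± 0.12 and A_52_P680941 gave -0.18 ± 0.12, with adjusted p-values of 0.898 and 0.632 in the fit over all probes. The highest liver was 1.26-fold above the lowest on the brightest probe.

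Stat5b, the STAT5 form on which male-specific liver gene expression depends most, had signals of 1707, 1745 and 1693 in LKO livers, against 1718, 2222 and 2124 in control livers. The 3 LKO livers lay close together, at the level of control 1, and controls 2 and 3 were higher. The log2 change was -0.23 ± 0.11 (95% interval -0.50 to 0.04; limma, adjusted p = 0.524), 1.17-fold lower in LKO livers and not past the test. Without control 1 it was -0.34 and without control 2 it was -0.16, with limma adjusted p-values of 0.342 and 0.781. Stat5a, which is close to Stat5b in sequence and shares part of its work, had 9419, 13114 and 10955 in LKO livers, against 11238, 10581 and 10640 in control livers on its brighter probe. That probe gave 0.03 ± 0.13 (limma, adjusted p = 0.950). The dimmer Stat5a probe A_55_P1990495 read 262, 281 and 259 in LKO livers, against 284, 390 and 361 in control livers. Its LKO livers were all below the controls, with a log2 change of -0.35 ± 0.13. The unadjusted p was 0.0337 and the adjusted p 0.427 (limma over all probes). The probes of Stat5a thus did not give the same direction.

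Cish, whose product CIS binds the activated receptor and blocks STAT5 docking, had signals of 2169, 206 and 320 in LKO livers, against 2524, 947 and 2315 in control livers. LKO 2 and LKO 3 were far below every control, whereas LKO 1 was level with controls 1 and 3. The geometric mean was 3.38-fold lower in LKO livers, a log2 change of -1.76 ± 0.88 with a 95% interval of -3.86 to 0.34 (limma, adjusted p = 0.522). Without LKO 1 the change was -2.78 with an adjusted p of 0.0907, and without LKO 2 it was -1.09 with an adjusted p of 0.767 (limma). Its highest liver stood 12.3-fold above its lowest.

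Socs2, the other inhibitor that growth hormone induces, read 1492, 392 and 334 in LKO livers, against 948, 293 and 722 in control livers. The highest liver was LKO 1 and the lowest was control 2, and the groups overlapped between 334 and 948. The log2 change was -0.01 ± 0.66, with a 95% interval of -1.59 to 1.57 (limma, adjusted p = 0.996). The second Socs2 probe read 617, 212 and 143 in LKO livers, against 389, 138 and 295 in control livers, and gave 0.08 ± 0.60 (adjusted p = 0.978, limma over all probes).

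Bcl6 had signals of 1063, 5304 and 4285 in LKO livers, against 879, 2635 and 854 in control livers. LKO 2 and LKO 3 were above every control, and LKO 1 was among the low livers. The geometric mean was 2.30-fold higher in LKO livers, a log2 change of 1.20 ± 0.70 with a 95% interval of -0.47 to 2.87 (limma, adjusted p = 0.580). Without LKO 1 the change was 1.92 and without LKO 2 it was 0.77, with limma adjusted p-values of 0.197 and 0.814. Leaving out any of the other mice gave 0.92 to 0.95, except control 2, without which it was 1.74.

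Read across the 6 livers rather than by genotype, these 3 genes split the mice in the same way. LKO 1, control 1 and control 3 had the 3 highest signals of Cish and of both Socs2 probes and the 3 lowest of Bcl6. LKO 2, LKO 3 and control 2 had the 3 lowest of Cish and Socs2 and the 3 highest of Bcl6. The order within each set of mice was not the same for the 3 genes: Cish was highest in control 1 and Socs2 in LKO 1. The pattern was noticed in these values and is given as a description, with no test and no grouping of the mice by it. The livers with low Cish and high Bcl6 were thus 2 of the 3 LKO livers and 1 of the 3 control livers.

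The same split was seen in a transcription factor outside the 10 genes, named here after its values were seen. Onecut1, which encodes HNF6 and is induced by growth hormone in rat liver, read 4365, 582 and 679 in LKO livers, against 2934, 674 and 2382 in control livers. LKO 1, control 1 and control 3 were again the 3 highest, and the difference between genotypes was -0.48 ± 0.89 (limma, adjusted p = 0.881). Socs3, an inhibitor that interleukin-6 as well as growth hormone induces, and likewise named after its values were seen, read 346, 1172 and 1699 in LKO livers, against 243, 1301 and 522 in control livers. It lay the way of Bcl6, with its 3 highest livers in LKO 2, LKO 3 and control 2, and its genotype difference was 0.69 ± 0.76 (limma, adjusted p = 0.786). Onecut1 and Socs3 were picked out of 22 tested signalling partners of the growth hormone receptor. Ptpn1 of that list split the mice in the same way, and no other tested gene of it did, Stat3, Prlr, Onecut2 and Jak2 included. All were read after their values were seen. The list as a whole did not follow the split. The share of all genes with this split was not counted.

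**Figure D2:**
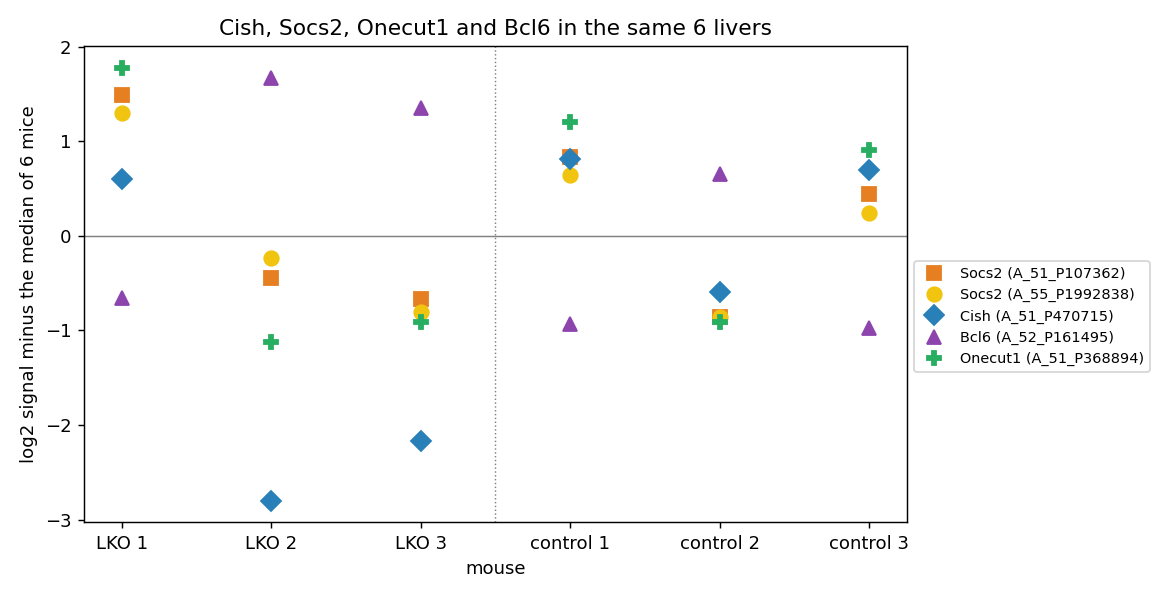
Log2 signal of Cish, both Socs2 probes, Onecut1 and Bcl6 in each liver, minus that probe's median over the 6 mice, with LKO mice left of the dotted line and control mice right of it. LKO 1, control 1 and control 3 lie above 0 for Cish, Socs2 and Onecut1 and below 0 for Bcl6, and the other 3 livers lie the opposite way.

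The size of this spread was set against all genes. The standard deviation between mice of 1 genotype was 1.39 on the log2 scale for Cish, larger than in 99.9% of 14171 genes and the 20th largest of all. It was 1.12 for Igfbp1, 1.11 for Bcl6 and 1.05 for Socs2, larger than in 99.7%, 99.7% and 99.6% of genes. Onecut1 ranked 18th with 1.40 and Socs3 ranked 35th with 1.21. The median gene had 0.15, and Igf1 had 0.11, Stat5b 0.14, Ghr 0.15 and Stat5a 0.17. Igfals with 0.33 and Igfbp2 with 0.27 lay between. Repeated spots on 1 array differed far less: over 300 probes printed 10 times, the median standard deviation between spots was 0.048 on the log2 scale. That value leaves out labelling and hybridisation, which 1 array per mouse cannot separate from differences between mice. Signals of the receptor, of both STAT5 genes and of Igf1 were steady between the arrays of different mice, and those of Cish, Socs2 and Bcl6 were not.

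**Figure D3:**
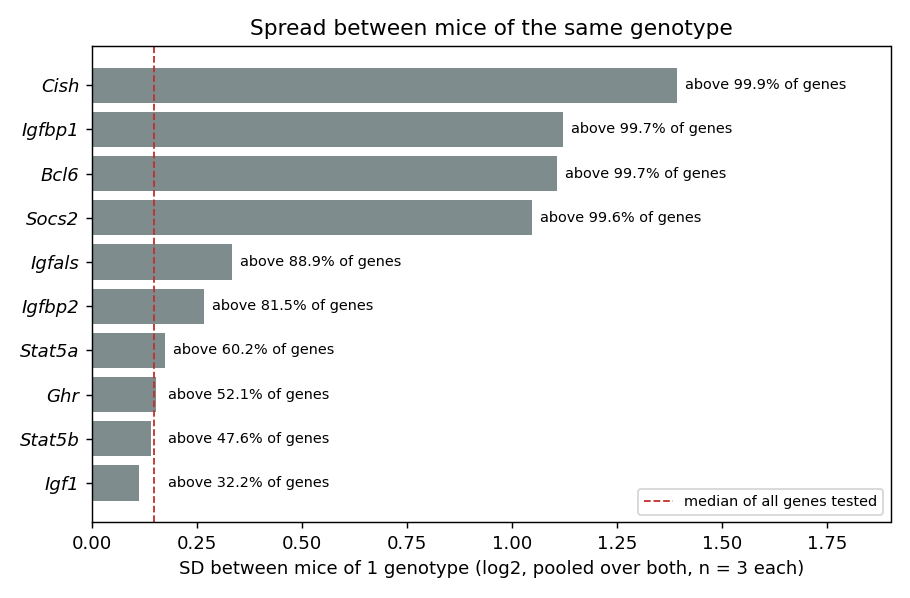
Standard deviation between mice of the same genotype, on the log2 scale, for each of the 10 genes, with the median of all 14171 genes as a line. Cish, Igfbp1, Bcl6 and Socs2 lie between 1.05 and 1.39, and the median gene lies at 0.15.

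Among the LKO livers, position on the slide and an acute phase response both ran with this pattern. LKO 2 and LKO 3, the livers with the lowest Cish and highest Bcl6, were the only arrays in column 2 of the slide. With column as a covariate only LKO 1 is compared with the controls, and the changes were 0.29 for Cish, -0.24 for Bcl6 and 1.35 for Socs2. Column and genotype cannot be told apart for LKO 2 and LKO 3. Control 2, in column 1 with the other controls, had the lowest Cish and Socs2 and the highest Bcl6 of the 3 controls. The part of column in these values was not tested. Of 22 acute phase genes all 22 had higher means in LKO livers, with a median log2 change of 0.78. Of these 22, 19 had an unadjusted p under 0.05 (5.56% of all tested genes were higher at it) and none an adjusted p under 0.05 (limma). Set against the control average, their mean log2 level was 0.75, 1.39 and 1.77 in LKO livers and -0.17, -0.10 and 0.27 in control livers. The serum amyloid genes Saa2 and Saa1 gave 3.48 ± 0.38 and 3.28 ± 0.40 on the log2 scale, each with an adjusted p of 0.100 (limma). The acute phase level was higher in LKO 1 than in any control, and among the controls it was highest in control 3, and both of these livers had high Cish. The part of the acute phase response in the Cish, Socs2 and Bcl6 values was not tested.

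Igf1, the main secreted product of the axis, read 30173, 33512 and 29368 in LKO livers, against 28929, 24621 and 25741 in control livers. All 3 LKO livers were above all 3 controls, as in 8.11% of all tested genes. On its brightest probe, none of the 10 genes had all LKO livers below the controls, as 9.21% of tested genes did. The difference was small, 0.23 ± 0.10 on the log2 scale or 1.17-fold higher in LKO livers, with a 95% interval of -0.01 to 0.47 (limma, adjusted p = 0.462). Igf1 did not follow the split of Cish and Socs2: LKO 2, lowest for Cish, had the highest Igf1 of the 6. Igfals, which encodes the subunit that holds IGF1 in the circulating complex, read 1509, 1199 and 885 in LKO livers, against 1108, 777 and 1023 in control livers. The groups overlapped, and the log2 change was 0.29 ± 0.22 (95% interval -0.24 to 0.82; limma, adjusted p = 0.676). Without LKO 1 it was 0.10, without control 2 it was 0.14 and without LKO 3 it was 0.49.

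Igfbp1, a binding protein that limits free IGF1 and falls after feeding, had 6464, 7952 and 29041 in LKO livers, against 46154, 16085 and 11198 in control livers. The highest LKO liver was LKO 3 and the highest control was control 1, and the 6 values spanned 7.14-fold. The geometric mean was 1.77-fold lower in LKO livers, a log2 change of -0.83 ± 0.71 with a 95% interval of -2.52 to 0.86 (limma, adjusted p = 0.713). Without control 1 the change was -0.23, without LKO 1 it was -0.41 and without LKO 3 it was -1.50, with limma adjusted p-values of 0.921, 0.856 and 0.564. It was -1.25 without control 3. Its order over the mice was not that of Cish, Socs2 or Bcl6. Irs2, an insulin receptor substrate that FOXO1 also switches on, was looked at after the values were seen. It read 904, 866 and 1513 in LKO livers, against 1288, 911 and 760 in control livers, and was likewise highest in LKO 3 and control 1. Irs2 was picked from 14 tested genes that insulin and FOXO1 control, and these did not share 1 order. Within each group Pck1, also read after its values were seen, was highest in LKO 3 and control 1. Sesn1 was highest in LKO 2 and control 2. Igfbp2, the binding protein with the steadier level, read 5896, 7146 and 7135 in LKO livers, against 6669, 9626 and 6195 in control livers. Its change was -0.13 ± 0.18 (95% interval -0.57 to 0.30; limma, adjusted p = 0.830).

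**Figure D4:**
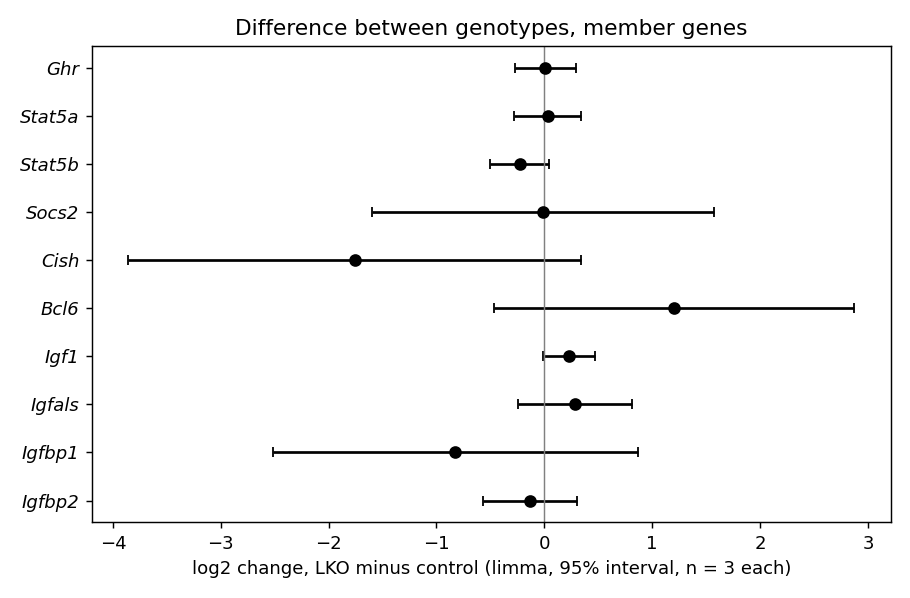
Log2 change, LKO over control, of the 10 genes with 95% intervals from limma, 3 mice per group. Every interval holds 0; those of Cish, Bcl6, Socs2 and Igfbp1 are the widest.

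The other genes of the pathway were followed through lists of known members. Of 22 tested signalling partners of the growth hormone receptor, 13 had higher and 9 lower means in LKO livers, with a median log2 change of 0.04 and none past an adjusted p of 0.05 (limma). At an unadjusted p under 0.05 there were 2 higher and 1 lower, where 5.56% and 5.6% of all genes were. Stat3, the factor that carries interleukin-6 signals, read 2473, 3484 and 4095 in LKO livers, against 1989, 2322 and 2335 in control livers. All 3 LKO livers were higher, by 0.57 ± 0.19 on the log2 scale (limma, adjusted p = 0.358). The next 3 by p in limma were Socs1 with -0.46 ± 0.17, Socs4 with 0.27 ± 0.11 and the phosphatase gene Ptpn2 with 0.23 ± 0.10, at adjusted p-values of 0.413, 0.431 and 0.462. Jak2, the kinase bound to the receptor, also named after its values were seen, gave -0.21 ± 0.16 (limma, adjusted p = 0.674).

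Of 13 further IGF system genes tested, 9 had higher and 4 lower means in LKO livers, with a median of 0.04 and none past the adjusted threshold (limma). None of them was higher and 2 were lower at an unadjusted p under 0.05, where 5.56% and 5.6% of all genes were. Igfbp5 read 73.0, 52.7 and 53.2 in LKO livers, against 79.2, 79.2 and 153 in control livers, all LKO values being lower (-0.74 ± 0.28; limma, adjusted p = 0.415). The RNA-binding protein gene Igf2bp2 gave -0.46 ± 0.16, Htra1, a protease that cleaves IGF binding proteins, gave -0.34 ± 0.16 and Igfbp4 gave 0.21 ± 0.10, with limma adjusted p-values of 0.373, 0.496 and 0.524.

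Male liver genes that need STAT5b and the pulsed hormone, and female-biased genes that the pulses keep low, give another view of the axis. Of 18 tested male-biased genes 12 had higher and 6 lower means in LKO livers, with a median of 0.05 and none past the adjusted threshold (limma). At an unadjusted p under 0.05 there were 3 higher and 0 lower, where 5.56% and 5.6% of all genes were. Cyp7b1, an oxysterol hydroxylase, read 17160, 24227 and 15430 in LKO livers, against 10243, 9230 and 6434 in control livers. The groups were apart, 2.19-fold higher in LKO livers, at an adjusted p of 0.199 (limma). Gstp1 gave 0.57 ± 0.13, Selenbp2 gave 0.72 ± 0.26 and Cyp4a12b gave -0.47 ± 0.22, with limma adjusted p-values of 0.237, 0.395 and 0.498. Set against the control average, the mean log2 level of the male-biased genes was 0.26, 0.15 and -0.13 in LKO livers and 0.06, 0.04 and -0.10 in control livers, which did not follow the split of Cish and Socs2.

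Of 21 female-biased genes on the array only 11 passed the filter on dim probes. Of these 11, 7 had higher and 4 lower means in LKO livers, with a median of 0.03 and none past the adjusted threshold (limma). At an unadjusted p under 0.05, 0 were higher and 2 lower, where 5.56% and 5.6% of all genes were. The lowest p-values belonged to Acot3, a peroxisomal thioesterase, with -0.64 ± 0.16 and Abcd2, a peroxisomal transporter, with -0.63 ± 0.18, at limma adjusted p-values of 0.255 and 0.297. The P450 genes Cyp3a16 and Cyp3a41a gave 0.23 ± 0.11 and 0.19 ± 0.11. Acot3 and Abcd2 were dim, at 43.6 to 86.7 and 35.5 to 70.7 over the 6 livers. Cyp3a16 and Cyp3a41a were bright for female-biased genes in male livers, at 2205 to 3077 and 15162 to 20616. Whether their probes read these genes alone was not tested. Cux2, a female-specific regulator looked up after the values were seen, was not well above background on any array.

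Genes that insulin and FOXO1 control were compared because Igfbp1 is one of them. Of 14 tested, 7 had higher and 7 lower means in LKO livers, with a median of -0.05 and none past the adjusted threshold (limma). At an unadjusted p under 0.05 there were 1 higher and 3 lower, where 5.56% and 5.6% of all genes were. Sesn1 with -0.35 ± 0.08, Sesn3 with -0.33 ± 0.10 and Foxo3 with 0.38 ± 0.12 had limma adjusted p-values of 0.251, 0.328 and 0.348.

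**Figure D5:**
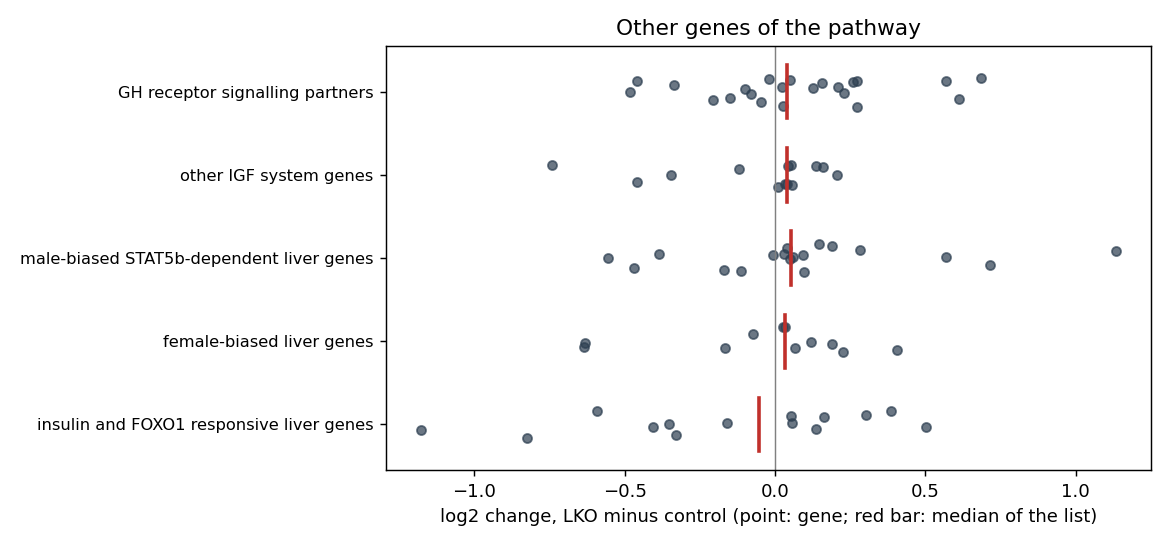
Log2 change, LKO over control, of every tested gene in the 5 pathway lists, 1 point per gene, with the list's median as a red bar. The points of each list lie on both sides of 0, and the medians lie between -0.05 and 0.05.

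Markers of the cells in whole liver were read beside these genes. No marker of any list passed the adjusted threshold (limma). Of 9 hepatocyte markers 7 had higher and 2 lower means in LKO livers, with a median of 0.06. Ambp gave 0.22 ± 0.08 and Ttr gave -0.16 ± 0.08. Of the 9 genes 2 lay wholly above and 1 wholly below the controls in LKO livers, as 8.11% and 9.21% of all tested genes did. All 12 Kupffer cell and macrophage markers had higher means in LKO livers, with a median of 0.22 and a summed signal of 34387 to 41769 in LKO livers and 27895 to 38461 in control livers. Marco gave 1.25 ± 0.41 and Lyz2 gave 0.46 ± 0.12. Of 9 lymphocyte and neutrophil markers 6 had higher and 3 lower means, with genes of different cells among both. The neutrophil genes S100a8 and Retnlg gave 2.43 ± 0.61 and 1.23 ± 0.33, whereas the plasma cell gene Jchain gave -0.90 ± 0.26. The T cell genes went both ways: Cd3g gave -0.64 ± 0.24 and the brighter Cd3e gave 0.17 ± 0.10. The B cell gene Cd79b gave 0.46 ± 0.32. Jchain, Cd3g, Cd3e and Cd79b were named after their values were seen. The summed signal of this list was 2558 to 6037 in LKO livers and 1853 to 2045 in control livers. It pools several cell types and is weighted to the brightest genes. The neutrophil gene S100a9, also named after its values were seen, read 596, 1546 and 3278 in LKO livers, against 216, 417 and 338 in control livers. Medians were 0.02 for 10 endothelial, -0.01 for 10 stellate and -0.08 for 6 bile duct markers. The endothelial genes Tie1 and Flt4 gave -0.18 ± 0.08 and -0.27 ± 0.16, the stellate cell genes Hgf and Des gave 0.52 ± 0.14 and -0.76 ± 0.24, and the bile duct genes Krt19 and Pkhd1 gave -0.69 ± 0.20 and -0.42 ± 0.18. The part of these cells in the values of the 10 genes was not tested.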

How the data were processed

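Total RNA of 6 mouse livers, 3 LKO and 3 control, was measured on Agilent arrays with 59305 spots for genes. The deposited scanner files hold spot intensity, processed with Agilent Feature Extraction 11.5.1.1 per the submitters' processing notes. Which corrections the software applied to reach its processed signal column was not stated. The flag columns (other) for outlier spots and spots well above background were used as deposited. The deposited value table holds the same intensity times 1 constant per array, 2.08 to 2.48, on a linear scale, not centred and in the same direction; how the constants were chosen is not given. Its column medians were 63.7, 59.1 and 62.2 for LKO and 55.3, 62.9 and 61.5 for control arrays.

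The log2 processed signal minus each array's 75th percentile was tested, leaving out outlier spots and averaging spots of a probe. The probe with the highest mean stood for a gene. Genes well above background on all 3 arrays of a group were tested with limma 3.58.1 in R 4.3.3 (lmFit, eBayes), with Benjamini-Hochberg adjustment over 14171 genes. The script was tested on simulated data. The number of arrays limits precision, and the labels do not say whether mice were littermates. Names and promoter windows came from RefSeq GRCm38.p6, whereas the file headers name an older build, so no probe coordinates are given. Of all probes, 23611 carried no symbol.

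The genes and lists were chosen with earlier results of these data known. All 10 genes of the axis were named; of each other pathway list the 4 with the smallest p, except 1 gene that is not reported here, and of marker and acute phase lists the 2 with the smallest p. Further genes are marked as chosen after their values were seen. Alternatives changed the scaling, background correction, filter, choice of probe, test and covariates and left out each mouse.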

Additional observations from a re-analysis of the deposited data

How the results depend on the processing

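None of the 10 genes passed an adjusted p of 0.05 under any of the 17 alternatives run. Across all genes 2 passed, against 16 with normexp background correction (offset 50, on the median spot signal), 13 with trend and robust eBayes, 6 with all probes fitted, and 1 with no filter on dim probes, with the filter on all 6 arrays or with slide column as a covariate. Leaving out 1 mouse gave 1 to 15 genes, 15 without LKO 1.

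Directions turned for genes near 0, and with slide column as a covariate also for Cish and Bcl6, which were not near 0. Ghr gave -0.030 with median scaling, -0.027 with normexp and -0.077 with the mean of probes, and -0.046 to 0.099 leaving out 1 mouse. Stat5a gave -0.0073 with median scaling, -0.16 with the mean of probes, -0.20 with slide column, and -0.090 to 0.15 leaving out 1 mouse. Socs2 gave 0.0046 with quantile normalization, 0.045 with normexp, 0.034 with the mean of probes, 1.35 with slide column, and -0.69 to 0.39 leaving out 1 mouse. Igfbp2 ranged over -0.26 to 0.060 leaving out 1 mouse. The cause was not tested. With slide column, which leaves LKO 1 alone against the controls, Cish gave 0.29 and Bcl6 gave -0.24. The median of all genes was -0.037 with median scaling.

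Over the 17 alternatives Igf1 stayed at 0.17 to 0.30, Stat5b at -0.34 to -0.16, Igfals at 0.10 to 0.65 and Igfbp1 at -1.65 to -0.23, each in 1 direction. Cish ranged over -2.78 to 0.29 with limma adjusted p-values of 0.0907 or more, and Bcl6 over -0.24 to 1.92. The 2 lowest Cish signals and the 2 highest Bcl6 signals were in LKO 2 and LKO 3.

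With the replicate block, 0 of the 10 genes and 3 of all genes passed; Cish kept -1.76 with a limma adjusted p of 0.400. The numbers were not taken to pair the mice, because the labels give no pairing. Deviations from the group mean correlated at 0.045, -0.055 and -0.070 for same-numbered mice and at -0.113 to 0.163 for the others. Deviations within a group sum to 0, so these correlations cannot decide whether mice were paired.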
